A study of Mus musculus with 36 samples.

Results

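The 10 genes described here encode ligands, a latency protein, receptors and feedback targets of the TGF-beta and activin pathway, and they were chosen by symbol from a table of 46078 mouse genes, in which each of the 10 symbols matched 1 row. BRB-seq, which tags and counts the 3' ends of polyadenylated transcripts in pooled libraries, was applied to cultured mouse astrocytes. The labels call all of them Nf1-/- DNp53 transformed astrocytes. All libraries came from cells that lack Nf1, which restrains Ras, and carry a dominant-negative p53, and all were grown in DMEM/F12 with fetal bovine serum, which can itself carry TGF-beta. The 36 libraries fall into 10 lines, a female and a male one for each of lots 6, 7, 8, 11 and 12, and a lot stands for a litter per the design text. Each line had 3 libraries in lots 6 and 12 and 4 in lots 7, 8 and 11. The age of the animals is not given in the labels used here. No line with intact Nf1 or p53, and no line with TGF-beta added or blocked, was analysed here.

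TGF-beta ligands are secreted in a latent complex in which their own propeptide holds the mature dimer, and latent TGF-beta binding proteins tether that complex to the extracellular matrix. Once released, the dimer joins a type II and a type I receptor kinase, which phosphorylate Smad2 and Smad3, and these enter the nucleus with Smad4. Among the genes switched on is Smad7, which shuts the type I receptor down again. In the brain, astrocytes both make and respond to TGF-beta, and the pathway is known for inducing matrix and contractile genes.

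Library totals ranged from 4358098 to 7562901 counts, with 12654 to 14177 genes detected, and 3 counts in a library, taken as the floor of detection, corresponded to 0.385 to 0.715 CPM. CPM here are relative to the TMM-scaled library size. Replicate 4 libraries, which exist in lots 7, 8 and 11, had 0.251 to 0.349% of counts on mitochondrial mRNA against 0.461 to 0.775% in all other libraries. Nothing in the labels says that a line's libraries are separate cultures, so p-values within lots measure the spread between these libraries alone. Each sex and lot is 1 line, and effects of sex or litter within a lot cannot be told apart from those of the single line. Of 12 astrocyte markers, 4 to 7 exceeded 1 CPM in a line, with a summed level of 113 to 245 CPM led by Gja1. Gfap and Aqp4, defining astrocyte markers, were at or near 0, with line means of 0 to 0.497 CPM for Gfap and 0 to 0.712 CPM for Aqp4. In bulk samples such as these, fewer cells of a type and less RNA per cell cannot be told apart.

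Promoters of 7 members were found in the RefSeq table (GRCm38.p6), 9 promoters in all, each from 250 bases before to 50 after a gene's start. Those of Tgfb2, Ltbp1 and Inhba, the members with the highest counts, are shown because the differences between lines described below turn on them. Capitals mark exact matches to 5 motifs searched on both strands, AP-1 as TGANTCA, SMAD as CAGACA, CRE as TGACGTCA, E-box as CACGTG and TEAD as GGAATG, and no printed match overlaps another. Positions count from the RefSeq start site of the window, which for Ltbp1 lies upstream of the gene start given below. A match is a description of letters in the window and not evidence of binding.
Tgfb2, chr1:186705940-186706239, minus strand: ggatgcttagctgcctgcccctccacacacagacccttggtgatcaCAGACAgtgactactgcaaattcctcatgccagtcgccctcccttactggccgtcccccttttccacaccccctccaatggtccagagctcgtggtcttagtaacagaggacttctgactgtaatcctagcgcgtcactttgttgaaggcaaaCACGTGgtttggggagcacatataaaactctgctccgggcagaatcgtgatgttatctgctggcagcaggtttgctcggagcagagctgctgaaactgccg
Ltbp1, chr17:75005279-75005578, plus strand: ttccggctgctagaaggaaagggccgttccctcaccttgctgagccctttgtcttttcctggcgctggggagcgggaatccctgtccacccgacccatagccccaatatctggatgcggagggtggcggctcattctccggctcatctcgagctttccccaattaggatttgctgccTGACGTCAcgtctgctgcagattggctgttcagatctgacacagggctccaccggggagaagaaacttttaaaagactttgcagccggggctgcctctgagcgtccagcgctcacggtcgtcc
Inhba, chr13:16011601-16011900, plus strand: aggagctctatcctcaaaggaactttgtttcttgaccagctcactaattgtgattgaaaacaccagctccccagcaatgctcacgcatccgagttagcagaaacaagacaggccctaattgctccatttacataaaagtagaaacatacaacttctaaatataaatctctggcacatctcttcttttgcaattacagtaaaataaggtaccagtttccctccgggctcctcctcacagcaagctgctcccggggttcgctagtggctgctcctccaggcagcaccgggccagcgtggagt

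The Tgfb2 promoter held a SMAD match at position -204 and an E-box match at position -51. Among 32851 promoters of the table, 21% held a SMAD match and 7.15% an E-box match. The Ltbp1 promoter at the gene's upstream start held the CRE match, at position -73, which 1.79% of all promoters had. A second Ltbp1 promoter, at chr17:75178531-75178830, held 2 SMAD matches. The Inhba promoter held none of the 5 motifs, of which AP-1 occurred in 7.81% and TEAD in 14.7% of all promoters.

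The 3 TGF-beta ligands had very different counts. Tgfb1 (ENSMUSG00000002603, chromosome 7, 25687002 to 25705077, GRCm38), the ligand best known from immune cells and platelets, had 52 counts in all libraries together and was at 0 in 22 of 36 libraries. Only 5 of 36 libraries held more than 3 counts of it, and it passed no expression filter and was not tested. Its highest library, lot 7 female replicate 2, had 2.62 CPM, where its sister libraries had 0.586, 0 and 0 CPM. Markers of microglia and macrophages, cells known to make this ligand, summed to 2.71 to 10.6 CPM over 12 genes, led by Cd68 or Tmem119, with 7 to 9 of the 12 at 0.

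Tgfb2 (ENSMUSG00000039239, chromosome 1, 186622792 to 186705989, minus strand), the ligand first purified from glioblastoma cells as an immunosuppressive factor, had line means that differed 7.39-fold between the highest and the lowest line. The lot 12 male line had 65.1, 80.2 and 84.2 CPM and stood above every other library. The lot 8 female line was lowest, with 10.2, 6.32, 7.64 and 17.2 CPM. Of all neighbours in the order of line means, 2 pairs had libraries that did not overlap: the lot 12 male line over the lot 6 female line, and the lot 6 male line over the lot 8 male line. Tgfb2 differed among the 10 lines at an adjusted p of 1.79e-09 by edgeR's quasi-likelihood F test.

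Within lots, Tgfb2 went in both directions. In lot 6 the female libraries had 45.1, 50.8 and 38.1 CPM, against 25.7, 21.05 and 21.6 CPM in the male libraries, without overlap. That was a log2 fold change, female over male, of 0.97 ± 0.30 (SE, edgeR adjusted p of 0.0118), and the call was lost without female replicate 2 (adjusted p of 0.0553). In lot 7 the female libraries had 34.6, 37.1, 34.8 and 43.3 CPM, against 20.8, 29.6, 15.2 and 32.4 CPM in the male libraries. These did not overlap either, but the log2 fold change of 0.61 ± 0.25 missed the threshold (edgeR adjusted p of 0.126). It passed without the replicate 4 libraries of all lots (adjusted p of 0.0349), without an expression filter (0.0412) and with the replicate block (0.0136).

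In lot 12 the order was turned round. The female libraries had 44.8, 37.6 and 51.5 CPM, against 65.1, 80.2 and 84.2 CPM in the male libraries, again without overlap. The log2 fold change was -0.78 ± 0.29 (edgeR adjusted p of 0.137). Replicate numbers were taken to pair the sexes in this lot, from residual correlations of 0.12 to 0.22 in these data and not from a label. With the replicate block the log2 fold change was -0.78 ± 0.20 (edgeR adjusted p of 0.017). In lot 8 the log2 fold change was -0.54 ± 0.28 (edgeR adjusted p of 0.242), with overlapping libraries, and it was -0.92 with an adjusted p of 0.0386 without female replicate 4. In lot 11 it was 0.05 ± 0.26. The test of whether the female over male difference varied between lots gave an edgeR adjusted p of 0.00247 for Tgfb2.

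Tgfb3 (ENSMUSG00000021253, chromosome 12, 86056745 to 86079041, minus strand), a ligand needed for palate fusion and lung development in mice, had the higher mean in the female line in 5 of 5 lots. In lot 8 that margin was a log2 fold change of only 0.02 ± 0.32, which was below 0 when any of 6 of that lot's libraries was left out (-0.09 to -0.01). Female lines averaged 18.3 ± 9.71 CPM and male lines 10.3 ± 3.76 CPM (SD, n = 5 lines per sex). In lot 6 the female libraries had 29.9, 39.4 and 22.8 CPM, against 11.3, 16.3 and 12.8 CPM in the male libraries, a log2 fold change of 1.19 ± 0.32 (edgeR adjusted p of 0.0048).

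In lot 7 the female libraries had 14.1, 13.3, 14.04 and 21.5 CPM of Tgfb3, against 11.2, 6.65, 3.81 and 7.89 CPM in the male libraries. The groups did not overlap, and the log2 fold change was 1.09 ± 0.29 (edgeR adjusted p of 0.0105). The call was lost without the replicate 4 libraries of all lots (adjusted p of 0.0742), without female replicate 4 alone (0.0606) and without male replicate 3 (0.0584). In lot 12 the female libraries had 20.2, 22.1 and 32.3 CPM, against 13.2, 10.3 and 19.2 CPM in the male libraries. They did not overlap, but the log2 fold change of 0.80 ± 0.32 missed the threshold (edgeR adjusted p of 0.189).

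In lots 8 and 11 the Tgfb3 libraries of the sexes overlapped. Lot 8 was low in both lines, at 5.67 ± 1.26 CPM in female and 5.58 ± 2.45 CPM in male libraries (SD, n = 4), and lot 11 was at 14.6 ± 3.19 CPM in female and 11.0 ± 2.69 CPM in male libraries (SD, n = 4). Across lots, with the libraries of a line summed, the log2 fold change of Tgfb3 was 0.70 ± 0.20 with an edgeR adjusted p of 0.695. The test of a difference that varied between lots gave an adjusted p of 0.146. On the opposite strand, the gene Ttll5 overlaps the 3' end of Tgfb3 and had 1220 counts against 3077 for Tgfb3. Whether strand was used in counting is not given in the sources used here, so reads of the pair may not be fully told apart.

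**Figure D1:**
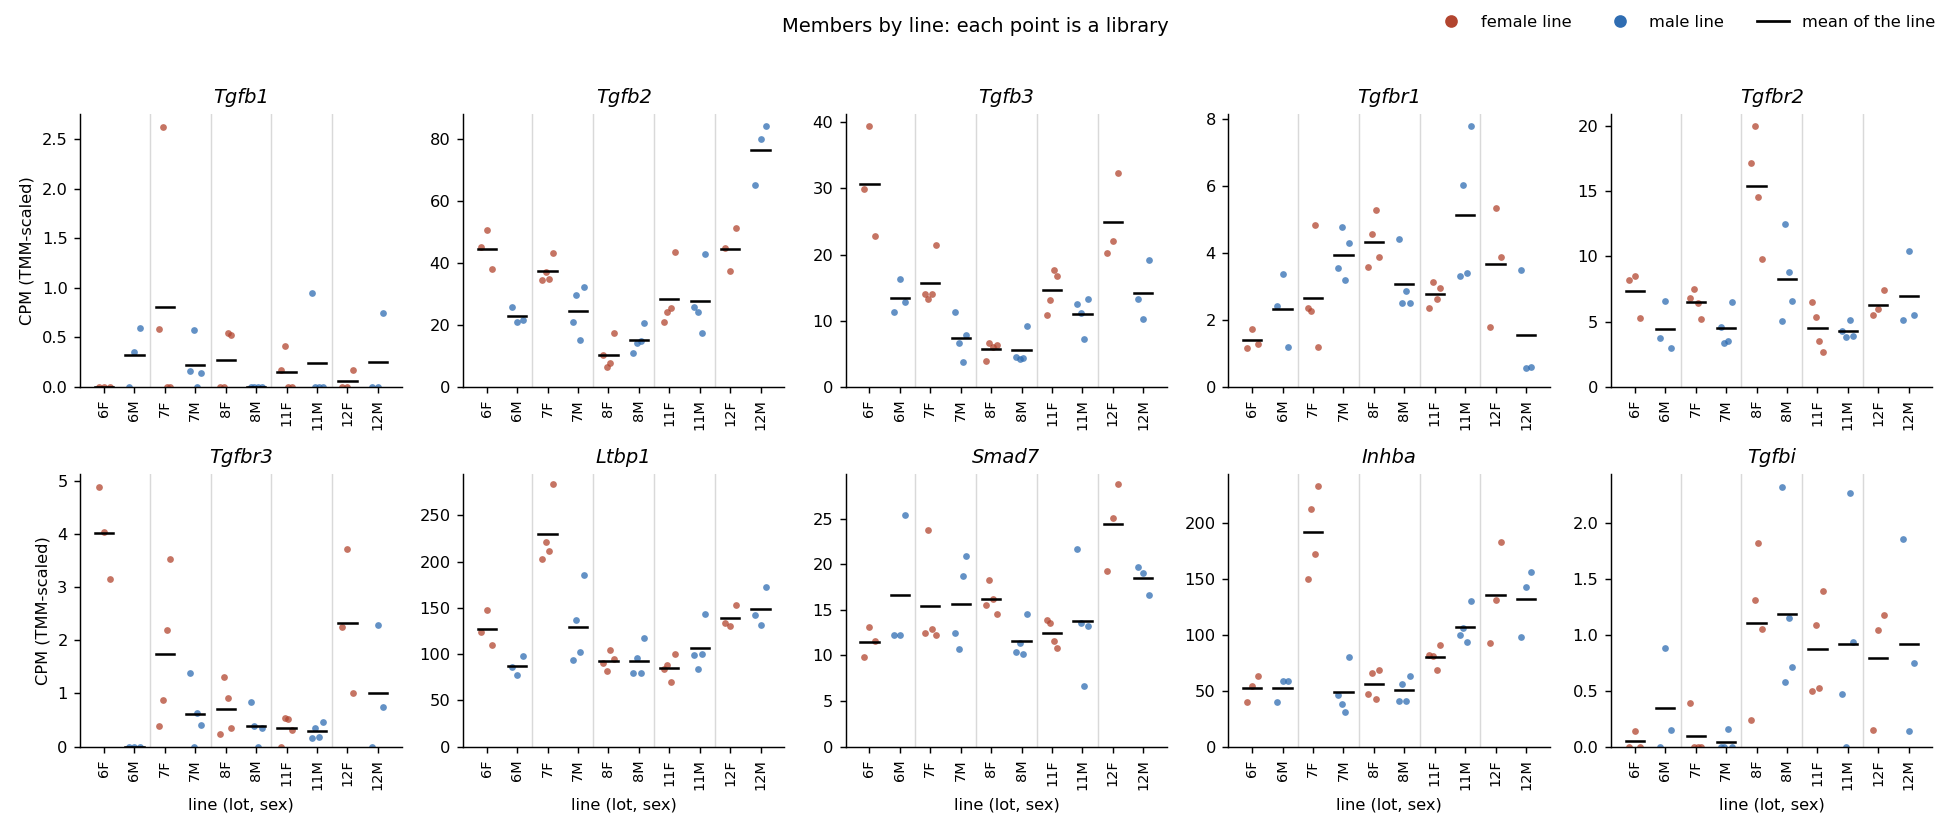
CPM (TMM-scaled, linear axes that start at 0) of the 10 genes in each library, with points coloured by sex and grouped by line (6F is the lot 6 female line), and a bar at the mean of each line. Inhba and Ltbp1 were highest in the lot 7 female line, at 192.3 and 230.1 CPM, and Tgfb2 in the lot 12 male line, at 76.5 CPM.

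Of the counts on Tgfb1, Tgfb2 and Tgfb3 together, Tgfb2 took the largest part in every line. Its share was 84.2 ± 4.01% in lot 12 male libraries (SD, n = 3) and 59.7 ± 3.15% in the lot 6 female line (SD, n = 3), the highest and the lowest. A share of 3'-end counts compares lines and was not taken as a comparison of the genes' own levels.

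Inhba (ENSMUSG00000041324, chromosome 13, 16011851 to 16031621) encodes the subunit that pairs with itself to form activin A, a ligand that uses its own receptors but the same Smad2 and Smad3. It rose in the lot 7 female line by the largest fold of any member that passed with counts in both lines. The female libraries there had 150.2, 212.5, 172.7 and 233.8 CPM, against 46.0, 38.1, 31.4 and 80.4 CPM in the male libraries. The lowest female library stood well above the highest male one, and the log2 fold change was 1.97 ± 0.23 (edgeR adjusted p of 6.80e-08). It ranged from 1.81 to 2.32 when each library was left out in turn.

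In the other 4 lots Inhba did not pass. In lot 11 the female libraries had 82.2, 80.98, 68.5 and 90.7 CPM, against 100, 105.9, 94.1 and 130.1 CPM in the male libraries. The female libraries were lower without overlap, at a log2 fold change of -0.42 ± 0.22 (edgeR adjusted p of 0.374). Both lines of lot 6 were at similar levels, 52.6 ± 11.6 CPM in female and 52.3 ± 10.8 CPM in male libraries (SD, n = 3). Both lines of lot 12 were higher, 135.8 ± 45.7 CPM in female and 132.5 ± 30.5 CPM in male libraries (SD, n = 3). The female over male difference of Inhba varied between lots at an edgeR adjusted p of 2.05e-06.

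Ltbp1 (ENSMUSG00000001870, chromosome 17, 75005568 to 75392512), which encodes the latent TGF-beta binding protein 1, was highest in the same line. In lot 7 the female libraries had 203.3, 221.2, 212.0 and 283.8 CPM, against 93.6, 137.4, 102.0 and 186.1 CPM in the male libraries. They did not overlap, and the log2 fold change was 0.83 ± 0.17 (edgeR adjusted p of 0.000778). Other genes of chromosome 17 were also higher there, with a median log2 fold change of 0.20 over 255 genes, against -0.04 over the genes of other chromosomes, and its part in the result was not tested.

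In lot 6 the female libraries had 123.9, 148.1 and 110.4 CPM of Ltbp1, against 86.6, 77.7 and 97.5 CPM in the male libraries. The log2 fold change of 0.55 ± 0.20 passed (edgeR adjusted p of 0.0356). It was lost without female replicate 1 (adjusted p of 0.0616), female replicate 2 (0.186), male replicate 1 (0.0897) or male replicate 2 (0.139). In lot 8 Ltbp1 was at 92.8 ± 9.52 CPM in female and 93.1 ± 17.9 CPM in male libraries (SD, n = 4). In lot 12 it was at 138.9 ± 12.2 CPM in female and 148.9 ± 21.5 CPM in male libraries (SD, n = 3). In lot 11 the female line had 85.6 ± 12.6 CPM and the male line 106.7 ± 25.8 CPM (SD, n = 4), with overlapping libraries. The difference varied between lots at an edgeR adjusted p of 0.00153.

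Of the receptors, Tgfbr1 (ENSMUSG00000007613, chromosome 4, 47353222 to 47414931), the type I kinase, was low in all lines, with a lowest mean of 1.39 ± 0.300 CPM (SD, n = 3; lot 6 female) and a highest of 5.13 ± 2.17 CPM (SD, n = 4; lot 11 male). It passed in no lot. In lot 11 the female libraries had 2.34, 3.14, 2.61 and 2.95 CPM, against 3.32, 6.03, 3.41 and 7.78 CPM in the male libraries, which did not overlap (edgeR adjusted p of 0.359). In lot 12 the female libraries had 1.79, 5.34 and 3.87 CPM, against 3.48, 0.570 and 0.595 CPM in the male libraries. These overlapped through 1 male library, replicate 1, without which the log2 fold change of 1.33 ± 0.58 became 2.60, with an adjusted p of 0.0203.

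Tgfbr2 (ENSMUSG00000032440, chromosome 9, 116084293 to 116175360, minus strand), the type II kinase that binds the ligand first, was highest in the lot 8 female line. Its libraries there had 17.2, 20.05, 14.6 and 9.84 CPM, against 5.06, 12.5, 8.79 and 6.59 CPM in the lot 8 male line. They overlapped, and the log2 fold change was 0.90 ± 0.32 (edgeR adjusted p of 0.0627). DESeq2 and library totals without scaling both called it (adjusted p of 0.0478 and 0.036), and so did the fits without female replicate 4 (0.0346) and without male replicate 2 (0.0284). The fitted log2 fold change was above 0 in 4 of 5 lots, of which lot 11, at 0.08 ± 0.34, turned to -0.14 without female replicate 1. Across lots the log2 fold change was 0.40 ± 0.22 (edgeR adjusted p of 0.703). The other 8 lines had means from 4.26 to 7.33 CPM.

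Tgfbr3 (ENSMUSG00000029287, chromosome 5, 107106570 to 107289629, minus strand) encodes betaglycan, a co-receptor that presents TGF-beta 2 in particular to the signalling receptors and also binds inhibin. In lot 6 the female libraries had 4.87, 4.03 and 3.14 CPM, or 88 counts, while all 3 male libraries were at 0. Against a floor of 3 counts over the male line, the gene was at least 23.9-fold higher in the female line (edgeR adjusted p of 0.00038). The expression filter needs counts in as few libraries as the smallest line holds, so this gene could pass through the lot 6 female line alone. In 5 of 5 lots the female line had the higher mean of this gene too, although in lot 11 the log2 fold change of 0.24 ± 1.04 became -0.07 without female replicate 2. The other female lines had 1.74, 0.702, 0.344 and 2.32 CPM in lots 7, 8, 11 and 12, against 0.609, 0.396, 0.290 and 1.01 CPM in the male lines, with overlapping libraries. Most of these values lie near the floor, and across lots the log2 fold change was 1.68 ± 0.88 (edgeR adjusted p of 0.697). The difference varied between lots at an adjusted p of 0.0337, which was lost when any of 5 of the 6 lot 6 libraries was left out (adjusted p of 0.0546 to 0.105).

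Of the induced genes, Smad7 (ENSMUSG00000025880, chromosome 18), the inhibitory Smad of the feedback loop, was the most even member. Its lowest line mean was 11.5 ± 1.61 CPM (lot 6 female) and its highest 24.4 ± 4.78 CPM (lot 12 female; SD, n = 3 each). The lot 12 female libraries had 19.3, 25.1 and 28.8 CPM, against 19.7, 19.1 and 16.7 CPM in the lot 12 male line, and the groups overlapped. No lot passed, with log2 fold changes from -0.53 to 0.47. Differences among the 10 lines had an edgeR adjusted p of 0.0444, and this call was lost when any of 18 of the 36 libraries was left out (adjusted p of 0.0505 to 0.161), the highest without lot 12 female replicate 3.

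Tgfbi (ENSMUSG00000035493, chromosome 13, 56609523 to 56639562) encodes a secreted matrix protein named for its induction by TGF-beta in human cells. It was near or under the floor in all lines, with 130 counts in all and line means of 0.0397 to 1.19 CPM. The lines of lots 8, 11 and 12 had 14 to 24 counts each, and those of lots 6 and 7 had 1 to 6. Tgfbi passed in no lot.

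Over the comparisons within lots, 9 of the 10 members passed the expression filter. In lot 6, 4 of the 9 were called higher in the female line and 0 lower, where 27.6% of 12173 genes were called, 13.5% higher and 14% lower. In lot 7, 3 were higher and 0 lower, where 10.8% of genes were called, 5.41% higher and 5.42% lower. In lots 8, 11 and 12, 0 members were called with edgeR in either direction. In lot 12, where replicate numbers were taken to pair the sexes, the replicate block called 1, Tgfb2 (edgeR adjusted p of 0.017). In lot 11, where they were not, it also called 1, Inhba (edgeR adjusted p of 0.0497). In the main fit, without that block, 11.4% of all genes were called in lot 8 (6.41% higher and 4.99% lower), 4.33% in lot 11 (1.52% higher and 2.81% lower) and 3.8% in lot 12 (1.74% higher and 2.06% lower). In those 3 lots, 1, 0 and 3 members had an unadjusted edgeR p under 0.05, where 2926, 1905 and 1866 of 12173 genes did. DESeq2 called 1 member, Tgfbr2, in lot 8 and 0 in lots 11 and 12. The replicate block and DESeq2 are among 8 alternatives that left out no single library. Under these, the genes called ran from 1070 to 1708 in lot 8, against 1388 in the main fit. They ran from 399 to 694 in lot 11, against 527, and from 106 to 667 in lot 12, against 463. For lots 6, 7, 8, 11 and 12, the members' median log2 fold changes were 0.55, 0.83, 0.16, -0.04 and 0.03, against 0.06, 0.01, 0.00, -0.01 and 0.01 over all genes tested. The libraries of the sexes did not overlap for 4, 4, 0, 2 and 2 members in these lots. The same was so for 42.6%, 16.1%, 16%, 10.3% and 16.5% of all genes.

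Across lots, 0 of 9 members and 0% of 12010 genes passed with edgeR. Unadjusted, 841 genes and 1 member, Tgfb3, had a p under 0.05. DESeq2 called 60 genes and 0 members. A limma voom fit, in which lines entered as random blocks, called 412 genes and 1 member, Tgfb3 (adjusted p of 0.013). Among the 10 lines, 9 of 9 members differed, where 51.8% of genes did. Without the replicate 4 libraries 6 of them did, and Tgfbr1 (adjusted p of 0.142), Smad7 (0.0588) and Tgfbi (0.106) did not pass. The call of Tgfbr1 was also lost when any of 7 single libraries was left out (0.0534 to 0.084). The female over male difference varied between lots for 4 of 9 members, where 29.9% of genes did. With line sums, differences among the 5 lots were called for 0 of 9 members and for 0.025% of genes, or 3 genes. There, 5 members and 1042 of 12010 genes had an unadjusted edgeR p under 0.05. DESeq2 called 457 genes and 2 members, Tgfb2 and Tgfb3.

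**Figure D2:**
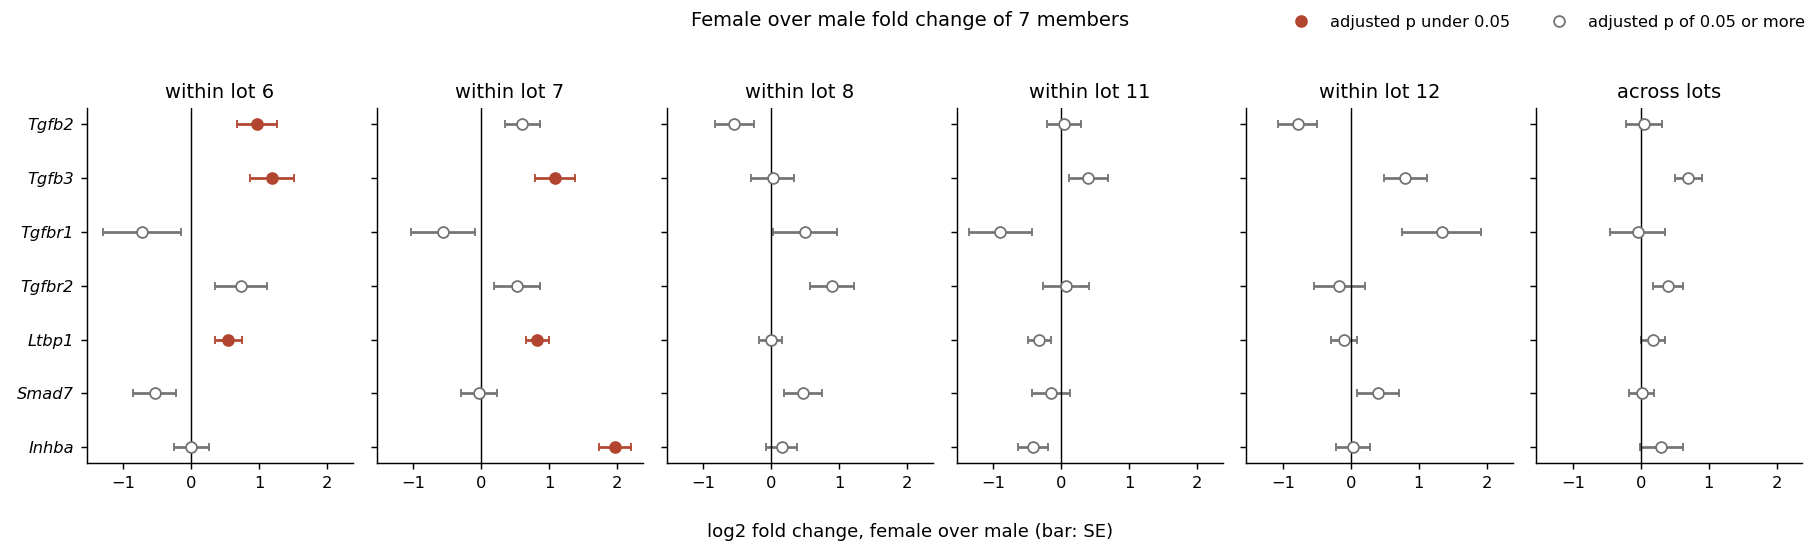
Female over male log2 fold changes with their SE for 7 members in each lot and across lots, with filled points at an adjusted p under 0.05 (edgeR). Tgfb2, Tgfb3 and Ltbp1 passed in lot 6, Tgfb3, Ltbp1 and Inhba in lot 7, and the Tgfb2 points of lots 8 and 12 lie left of 0.

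Other genes of the pathway were described from lists of 70 genes, of which 61 passed the filter. The lists were chosen with earlier results of these data known, so counts set beside shares over all genes are a description and not a test. For these genes, a rise or fall by a stated amount is a log2 fold change, female over male, with its SE. Of 20 genes known to respond to TGF-beta, 11 rose and 5 fell in the lot 6 female line, where 13.5% of all genes rose and 14% fell. Cnn1, a contractile regulator, rose to 1466 ± 106.5 CPM in the female libraries, against 36.2 ± 17.0 CPM in the male ones (SD, n = 3), a log2 fold change of 5.34 ± 0.50. Tagln, an actin cross-linker, rose by 2.32 ± 0.19 and Acta2, smooth muscle actin, by 1.61 ± 0.16, whereas the collagen gene Col1a2 fell by 4.34 ± 0.47. In lot 7, 12 of 20 rose and 0 fell, where 5.41% of all genes rose and 5.42% fell. Acta2 rose by 2.58 ± 0.14, Ccn2, a matricellular protein gene, by 1.69 ± 0.15, Cnn1 by 3.47 ± 0.42 and Snai2, a transcription factor of mesenchymal transition, by 2.53 ± 0.33. All of these had edgeR adjusted p-values of at most 6.29e-07.

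In lot 8, 6 responsive genes rose and 1 fell, where 6.41% of all genes rose and 4.99% fell. In lot 11, 3 rose and 1 fell, where 1.52% of all genes rose and 2.81% fell. In lot 12, 2 rose and 2 fell, where 1.74% of all genes rose and 2.06% fell. In lot 8 Col1a1 fell by 3.41 ± 0.35, while Tpm1, a tropomyosin gene, Junb, an AP-1 subunit gene, and Fn1, fibronectin, rose by 0.68 ± 0.11, 0.69 ± 0.14 and 1.43 ± 0.30. In lot 11 Cnn1 rose by 2.60 ± 0.40, the transcriptional repressor gene Bhlhe40 by 1.44 ± 0.25 and the sphingosine kinase gene Sphk1 by 1.26 ± 0.27, and Sparc, a matricellular gene, fell by 0.40 ± 0.11. In lot 12 Timp1, an inhibitor of metalloproteinases, rose by 1.41 ± 0.16, while Col1a2 fell by 3.74 ± 0.45 and Ccn2 by 0.72 ± 0.17. Over lots 6, 7, 8, 11 and 12, the list's median log2 fold changes were 0.68, 0.62, 0.15, 0.06 and 0.20. All 20 responsive genes differed among the 10 lines, where 51.8% of all genes did.

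The list shares Acta2 with the pericyte and smooth muscle markers, whose summed level in the lines ran from 1351 to 14810 CPM, nearly all of it Acta2. Of those 8 markers, 2 to 3 exceeded 1 CPM and 3 to 5 were at 0 in a line. Pdgfrb, a defining pericyte marker, averaged 32.9 ± 6.86 CPM in the lot 7 female and 15.3 ± 5.72 CPM in lot 7 male libraries (SD, n = 4), and 19.0 ± 1.09 CPM in the lot 6 female against 15.9 ± 1.44 CPM in lot 6 male libraries (SD, n = 3). The 10 fibroblast and meningeal markers, which share Col1a1, Col1a2 and Col3a1 with the list, summed to 240 to 1584 CPM, with 6 or 7 over 1 CPM and Lum at 0 in every line. The part of these cell types in the result was not tested.

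Of 9 tested genes of latency and activation, 3 passed in lot 6 and 2 in lot 7, where 27.6% and 10.8% of all genes passed, so that the lot 6 count is near the share over all genes. Thbs1, thrombospondin-1, which can release TGF-beta from its latent complex, rose to 303.4 ± 20.7 CPM in the lot 6 female libraries, against 117.1 ± 9.62 CPM in the male ones (SD, n = 3), and to 467.1 ± 103.9 CPM in the lot 7 female libraries, against 236.8 ± 54.4 CPM in the male ones (SD, n = 4). Mmp14, a membrane-bound metalloproteinase, fell by 1.47 ± 0.24 in lot 6 and rose by 0.81 ± 0.20 in lot 7. Fbn1, fibrillin-1, to which latent complexes bind, fell by 1.05 ± 0.38 in lot 6. Ltbp2, another gene of the Ltbp family, rose in lot 8 by 3.40 ± 0.97 and fell by 2.52 ± 0.75 in lot 11. In lots 8 and 11, 1 of 9 passed, where 11.4% and 4.33% of all genes did, and in lot 12, 0 of 9, where 3.8% did.

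Of 7 tested genes for activins, inhibins and binding proteins, 3 passed in lot 6, where 27.6% of all genes did, and 3 in lot 8, where 11.4% did. In lot 7, 2 passed, where 10.8% of all genes did, and 1 passed in lots 11 and 12, where 4.33% and 3.8% did. Fst, follistatin, which binds and blocks activin, fell to 6.36 ± 0.722 CPM in the lot 6 female libraries, against 54.2 ± 10.2 CPM in the male ones (SD, n = 3). It rose to 45.2 ± 10.2 CPM in the lot 8 female libraries, against 18.3 ± 4.96 CPM in the male ones (SD, n = 4). In lot 12 it fell to 8.85 ± 2.88 CPM in the female libraries, against 29.9 ± 25.8 CPM in the male ones (SD, n = 3; edgeR adjusted p of 0.0173), with overlapping libraries. In lot 7, where Inhba differed most, Fst was at 10.7 ± 6.22 CPM in female and 10.5 ± 1.505 CPM in male libraries (SD, n = 4). Fstl1, a follistatin-like gene, rose in lots 6, 7 and 8, by 1.49 ± 0.16, 0.85 ± 0.14 and 1.09 ± 0.14. Bgn, biglycan, a matrix proteoglycan that can bind TGF-beta, fell by 3.77 ± 0.37 in lot 6, fell by 2.25 ± 0.32 in lot 7 and fell by 1.76 ± 0.30 in lot 11. Inhbb, the other activin subunit gene, fell by 2.53 ± 0.49 in lot 8.

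Of 7 Smads, Smad3 rose in lots 6 and 8, by 0.96 ± 0.35 (edgeR adjusted p of 0.0383) and 1.04 ± 0.31 (adjusted p of 0.0235), and 0 passed in lots 7, 11 and 12. Of 7 other receptors, Acvr1, a type I receptor of the BMP and activin group, rose in lot 6 by 1.36 ± 0.40, and 0 passed in the other 4 lots. Among the 10 lines, 2 of 7 Smads and 1 of 7 other receptors differed, where 51.8% of all genes did. Within lots, 27.6%, 10.8%, 11.4%, 4.33% and 3.8% of all genes passed in lots 6, 7, 8, 11 and 12.

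The list of negative regulators and feedback had 11 tested genes. Of these, Bambi, a decoy receptor that TGF-beta induces, rose in lot 6. It was at 36.6 ± 1.13 CPM in the female libraries, against 14.4 ± 2.93 CPM in the male ones (SD, n = 3). Usp15, a deubiquitinase of receptor and Smads, is in this list but is not itself a negative regulator. It fell by 1.75 ± 0.20 in lot 6 and by 0.50 ± 0.17 in lot 7. Pmepa1, which TGF-beta induces and which binds Smad2 and Smad3, rose in lots 7 and 8, by 0.56 ± 0.16 and 0.55 ± 0.16. Tgif1, a Smad corepressor, rose in lot 8 by 0.97 ± 0.14, while Smurf2, a ubiquitin ligase that works with Smad7, fell by 1.42 ± 0.45 there. Skil, the corepressor SnoN, fell by 1.60 ± 0.39 in lot 11. In lots 6, 7, 8, 11 and 12, 2, 2, 3, 1 and 0 of the 11 genes passed. Of all genes, 27.6%, 10.8%, 11.4%, 4.33% and 3.8% did.

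**Figure D3:**
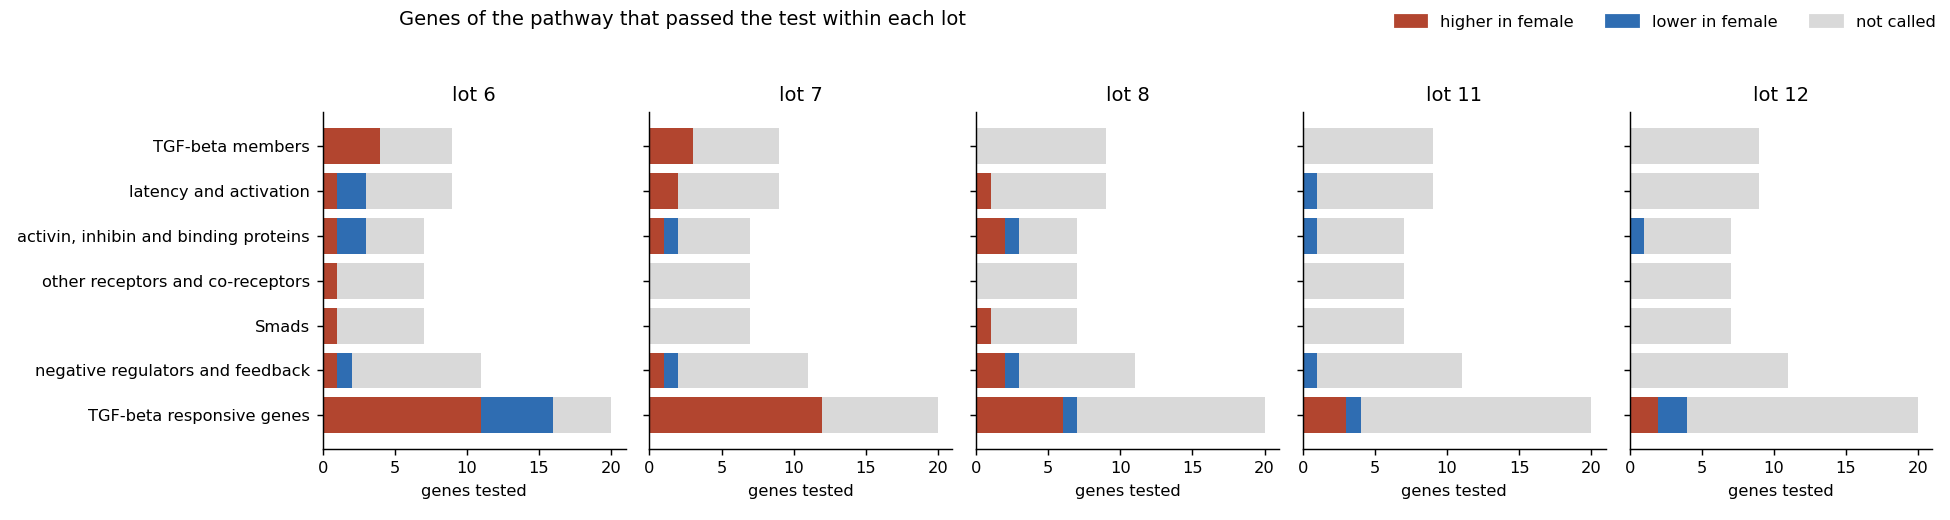
Number of genes of each list that were tested within each lot (x axis), split into those higher in the female line, lower in the female line and not called at an adjusted p under 0.05 (edgeR). Among responsive genes, 11 were higher and 5 lower in lot 6, and 12 higher and 0 lower in lot 7.

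Over the 10 line means, the members varied together to different degrees. The points are lines of 5 litters measured in shared libraries, and correlations of log2 CPM are given as a description. Tgfb2 and Tgfb3 had a Pearson r of 0.76 and a Spearman rho of 0.83, and an r of 0.91 without the lot 12 male and lot 8 female lines. Ltbp1 and Inhba had an r of 0.70 and a rho of 0.48, and an r of 0.58 without the lot 7 and lot 11 female lines. Tgfb2 and Tgfbr1 had an r of -0.62 and a rho of -0.59, and an r of -0.26 without the lot 12 male and lot 8 female lines.

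The responsive genes were set against the members over the same 10 lines. This list too was chosen with earlier results of these data known, so the shares over all genes beside it are no test, and a response to the ligands was not tested. Tgfb2 had an r above 0 with 17 of 20 responsive genes and an r of at least 0.7 with 9, where 6.47% of 8069 genes had one. Tgfb3 had an r of at least 0.7 with 7 of 20, where 5.76% of genes had one. Tgfb3 had an r of 0.92 with Cnn1, 0.90 with Acta2 and 0.89 with Tagln. Tgfb2 had an r of 0.87 with Tgfb1i1, a focal adhesion adaptor gene, and 0.82 with Acta2. Snai1 and Col1a2 ran the other way, at an r of -0.48 and -0.26 with Tgfb2. Ltbp1 had an r of at least 0.7 with 4 of the 20 and Inhba with 2, where 3.53% and 2.59% of genes had one. Among these were an r of 0.88 of Ltbp1 with Ccn1 and of 0.86 of Inhba with Ccn2, both matricellular genes. Tgfbr2 and Smad7 had an r of at least 0.7 with 0 of the 20, where 0.384% and 1.61% of genes had one. In all, 120 such relations were computed.

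**Figure D4:**
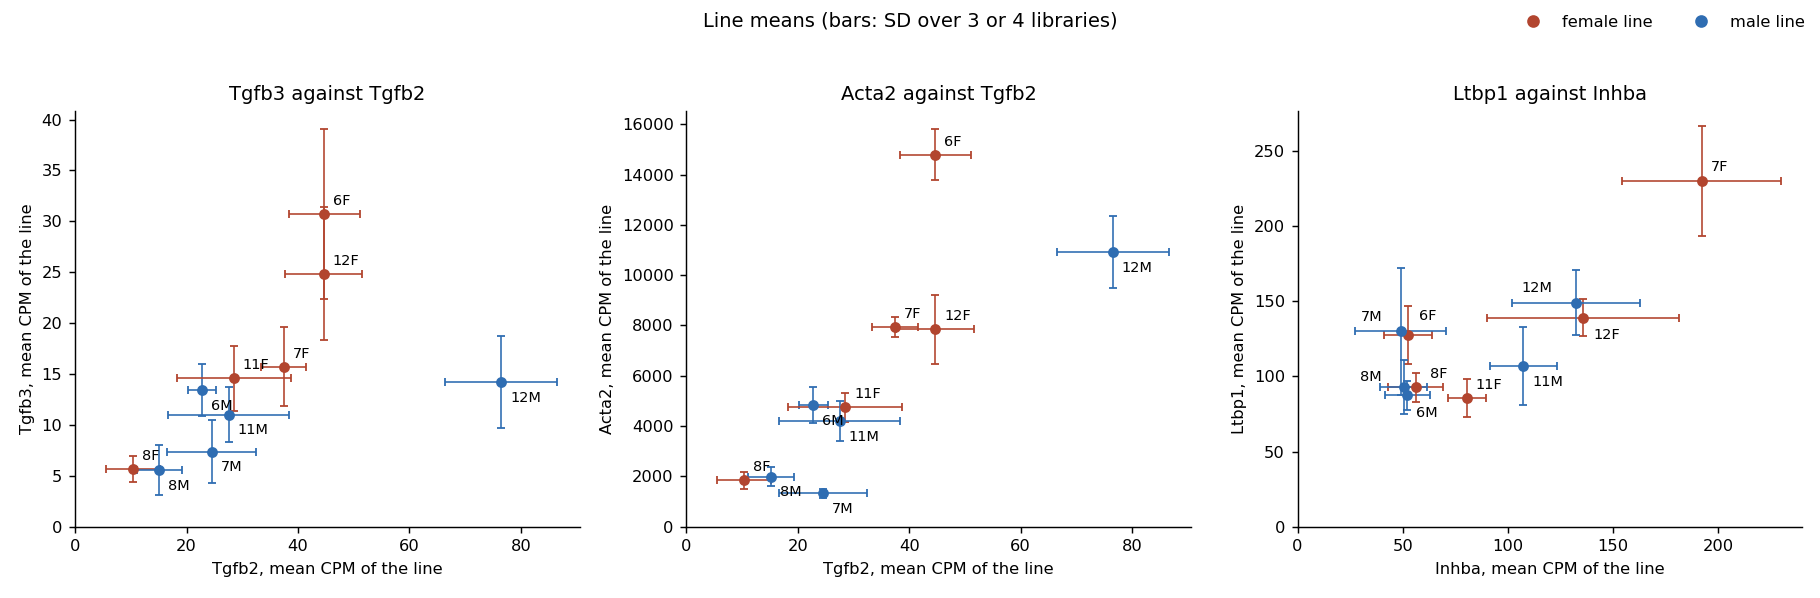
Mean CPM of each line, with bars for the SD over 3 or 4 libraries, for Tgfb3 against Tgfb2, Acta2 against Tgfb2 and Ltbp1 against Inhba, with labels giving lot and sex. The lot 12 male line is far right for Tgfb2 at 76.5 CPM with a Tgfb3 level of 14.2 CPM, and the lot 7 female line is at the top right for Inhba and Ltbp1.

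The genes with the most similar pattern over the 10 lines were named for the 6 members with a mean of at least 5 CPM, from 7546 candidates. For Tgfb2 they were Mxd4, Cope and Herc3, with an r of 0.95, 0.94 and 0.94. For Tgfb3 they were Vamp5, Plpp3 and Mpc2, at 0.95, 0.93 and 0.93. For Ltbp1 they were Egr1, F2r and Snx16, at 0.94, 0.92 and 0.91. For Inhba they were Mbnl2, Bmp1 and Ccdc66, at 0.94, 0.94 and 0.91. For Tgfbr2 they were Lactb2, Sec11a and Med25, at 0.94, 0.89 and 0.88, and for Smad7 they were Slc1a4, Cth and Zdhhc20, at 0.90, 0.90 and 0.87. With 10 points and so many candidates, correlations of this size describe these lines only.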

How the data were processed

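BRB-seq libraries were made with sample barcodes and molecular identifiers, per the labels' protocols. The authors deposited raw counts, per the labels, with an Ensembl gene in each row, and all were whole. Tools named in the submitters' processing notes are STAR 2.7.6a, Subread 2.0.2 and cutadapt 2.10, and the build is GRCm38. Whether identifiers were collapsed and whether strand was used are not given in the sources used here, so floors cover counting error only. Identifiers were matched to GENCODE M21 for 45229 of 46078 genes.

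Counts were tested with edgeR 4.0.16 (quasi-likelihood, TMM, its expression filter) in R 4.3.3, with Benjamini-Hochberg adjustment over all genes tested and a threshold of 0.05. Across lots, counts summed per line were fitted with lot and sex. Within lots, each line had 1 coefficient in a fit of all 36 libraries, with female over male contrasts. Alternatives used limma 3.58.1 and DESeq2 1.42.0, other scalings and filters, a replicate block, single lots, and each lot or library left out. Python 3.11.15 and matplotlib 3.10.9 drew the plots. The fits were tested on simulated data.

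Correlations used log2 CPM of line means with a prior count of 2. Library totals had a median of 6.06e+06. No pair of libraries was identical, and chi-square over its degrees of freedom was 5.63 to 24.1 for the 48 pairs of libraries of one line. Replicate numbers were checked for pairing: residuals of same-numbered libraries of a lot correlated at -0.022 to 0.22 over 18 pairs, and 3 exceeded 0.1, all in lot 12, where the numbers were taken to pair the sexes. The members and lists were chosen with earlier results of these data known. All members were named, and of each list up to 4 genes by smallest p per comparison, except for a result that is not reported here. Other genes named from the lists, and the comparison of Fst in lot 7, were chosen after their values were seen.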

Additional observations from a re-analysis of the deposited data

Results flagged for a closer look

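Of 79 groups of 4 or more values checked, 8 held 1 value far from the rest. The rule is set to flag about 1 in 20 groups of normally spread values. That rate does not hold for genes with few counts, so the number of flags is not evidence of an excess. In the lot 7 female line, Tgfb3 was at 21.5 CPM in replicate 4 and at 13.3 to 14.1 CPM in the other 3 libraries. In the lot 8 male line, Tgfb3 was at 9.26 CPM in replicate 4 and at 4.23 to 4.43 CPM in the others. Both replicate 4 libraries belong to the set with the low share of mitochondrial mRNA, and that share's part in the values was not tested. Smad7 was at 23.8 CPM in lot 7 female replicate 2 and at 12.3 to 12.95 CPM in the other libraries of the line.

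The other flags within lines lie near the floor of 3 counts, where the rule always flags a single library with counts beside libraries at 0. Tgfb1 was at 0.948 CPM in lot 11 male replicate 1, and Tgfbi at 0.391 CPM in lot 7 female replicate 1 and at 0.159 CPM in lot 7 male replicate 3, where all other libraries of those lines were at 0.

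Among line means, Tgfb2 in the lot 12 male line, at 76.5 CPM, stood far from the other 4 male lines, which had 15.1 to 27.6 CPM. Tgfbr2 in the lot 8 female line, at 15.4 CPM, stood far from the other 4 female lines, which had 4.49 to 7.33 CPM.

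The female over male difference itself varied between lots for 4 members, by edgeR's test over all 5 lots. The adjusted p was 2.05e-06 for Inhba, 0.00153 for Ltbp1, 0.00247 for Tgfb2 and 0.0337 for Tgfbr3, and 29.9% of all genes passed the same test.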

How the results depend on the processing

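Of 3608 values of single members under an alternative, 2413 for 54 fold changes and 1195 for 27 adjusted p-values without a sign, 3457 kept their side of the threshold and any direction, 46 were no longer past it, 22 newly passed it and 83 changed sign. The changes of sign concerned 20 fold changes, of which 0 were called as reported or under the alternative. Across lots, 1 member in place of 0 was called with libraries as replicates, Tgfb3 (adjusted p of 0.00176), a setting that takes libraries of a line for litters, and 1 with limma voom. In lot 8, 1 was called with library totals and 1 with DESeq2, Tgfbr2 each time. In lot 11 the replicate block gave 1, Inhba (adjusted p of 0.0497). In lot 12, 1 was called without an expression filter, 1 with the replicate block and 1 without replicate 4, Tgfb2 each time. Lot 12 has no replicate 4, but all lots share 1 fit, so the spread used for lot 12 changes when those libraries are left out. The log2 fold change of Tgfb2 was then -0.79, against -0.78 in the main fit. DESeq2 called 2 members and 457 genes for differences among lots over line sums. The cause was not tested. The replicate block also brought Tgfb2 in lot 7 past the threshold (adjusted p of 0.0136) and took Tgfbr3 out of the difference that varied between lots (0.0911), and Tgfbr1 (0.0663) and Smad7 (0.0644) out of the differences among lines. In lots 6, 7, 8 and 11 the residual correlations of same-numbered libraries stayed under 0.1, and the numbers were not taken to pair the sexes. The replicate 4 pairs of lots 7, 8 and 11 came close to that threshold, at 0.073, 0.093 and 0.091, so pairing there is not excluded.

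With libraries left out in turn, the members called ranged from 0 to 0 across lots, 2 to 4 in lot 6, 2 to 3 in lot 7, 0 to 2 in lot 8, 0 to 0 in lot 11, 0 to 1 in lot 12, 7 to 9 among the 10 lines, 3 to 5 for the difference that varied between lots and 0 to 0 among lots over line sums. The 0 to 2 of lot 8 reached 2 without female replicate 4 and 1 without male replicate 2, and that of lot 6 reached 2 without female replicate 2.

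Counts over all genes that moved by more than 1.5 times were 1269 with libraries as replicates, 412 with limma voom, 60 with DESeq2, 3 without a filter, 1 without a lot block and 1 without replicate 4, against 0 across lots. They were 878 in lot 7 without replicate 4, against 1319. In lot 12 they were 106 with that lot alone and 228 to 731 with 1 of its libraries left out, against 463. Among lots over line sums they were 457 with DESeq2, 41 without a filter and 0 to 9 with a lot or library left out, 7 with the stricter filter, against 3. Library totals in place of TMM moved the median log2 fold change of all genes by 0.22 in lot 6 and by at most 0.091 elsewhere, and the members called there kept their direction. Depth limits Tgfb1, Tgfbi and Tgfbr3, whose values lie mostly under or near 3 counts.

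The log2 fold changes that changed sign were each smaller than their own SE as reported. Across lots, Tgfb2 (0.05) was -0.029 without a lot block, -0.18 without lot 6 and -0.090 without lot 7. Tgfbr1 (-0.05) was 0.043 with library totals, 0.11 without lot 6, 0.093 without lot 7 and 0.18 without lot 11. Tgfbi was 0.14 without lot 6, Inhba -0.080 without lot 7, and Smad7 -0.097 without lot 8 and -0.082 without lot 12. Within lots, Smad7 in lot 7 was 0.032 and Tgfbi in lot 8 was 0.015 with library totals, and Tgfbi was 0.37 in lot 11 and 0.073 in lot 12 with the replicate block. Ltbp1 in lot 8 (-0.01) was 0.0021 with RLE, 0.0021 with DESeq2, 0.0054 with the replicate block, 0.0052 with that lot alone and 0.075 with library totals. The cause was not tested.

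With libraries left out in turn, these fold changes ranged across lots from -0.023 to 0.12 for Tgfb2, -0.15 to 0.084 for Tgfbr1, -0.042 to 0.11 for Smad7 and -0.47 to 0.065 for Tgfbi. In lot 6 the range was -0.16 to 0.17 for Inhba. In lot 7 it was -0.32 to 0.24 for Smad7 (the highest without all replicate 4 libraries) and -1.50 to 2.41 for Tgfbi. In lot 8 it was -0.090 to 0.39 for Tgfb3, -0.075 to 0.13 for Ltbp1 and -0.43 to 0.45 for Tgfbi. In lot 11 it was -0.22 to 0.35 for Tgfb2, -0.14 to 0.27 for Tgfbr2, -0.068 to 0.63 for Tgfbr3, -0.37 to 0.16 for Smad7 and -0.45 to 0.87 for Tgfbi. In lot 12 it was -0.35 to 0.23 for Tgfbr2, -0.19 to 0.012 for Ltbp1, -0.25 to 0.24 for Inhba and -0.70 to 0.79 for Tgfbi.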
